A study of Mus musculus with 12 samples.

Results

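The genes described here are 33 genes of the Fanconi anaemia (FA) pathway and of the DNA damage response that works with it, chosen by gene symbol from the 30743 rows of the deposited gene table. A row was found for all 33. RNA was taken from whole livers of male C57BL/6 mouse fetuses at gestational day 15 ± 0.5. Of the 12 livers, 6 came from dams fed a control diet with 13.5 kcal% fat and 6 from dams fed a high-fat diet (HFD) with 60 kcal% fat, each for 12 to 14 weeks. Which fetuses shared a dam is not given in the sources used here. The value used was the authors' average level over all 12 livers, in CPM (read counts scaled to the size of the library), so both diets are pooled in every level below. No value of a single liver entered these results, and the diets were not compared.

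The FA pathway removes covalent links between the strands of DNA, such as those left by aldehydes and by some chemotherapy drugs. A core complex of FA proteins acts as a ubiquitin ligase on the paired proteins FANCD2 and FANCI, and the modified pair brings in nucleases that cut out the link, after which homologous recombination rebuilds the broken strand. Checkpoint kinases and proteins that mark chromatin around breaks signal the damage. Inherited loss of this pathway causes bone marrow failure, and in the mouse the fetal liver is the organ where blood stem cells multiply before birth.

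Levels are given in 3 ways. CPM is the authors' average, which contains a small constant added to every gene, so that a gene without reads sits at 0.152 CPM. Reads are the total over the 12 livers that this average corresponds to, at a mean effective library size of 13129752 reads per liver, and 1 CPM is about 134 reads. Reads per kb divide that total by the length of 1 representative transcript per gene, and ratios of partner genes are given on this scale. Percentiles and values in CPM or reads are not corrected for length. Intervals are exact 95% Poisson intervals and cover counting error only, so those of ratios leave out the choice of transcript length. The spread between livers is not in these values.

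All 33 genes had reads, and 19 of them (57.6%) lay above 1 CPM. The same was true of 33.1% of all rows, of 51.8% of rows with reads and of 45.0% of rows matched to a protein-coding gene. The median member, Mre11a at 2.51 CPM, stood at percentile 59.0 among the rows with reads and at percentile 20.9 among the rows above 1 CPM. The second reference leaves out low rows while all 33 members are kept, which lowers that percentile. Fancf, the median of the 19 members above 1 CPM, stood at percentile 53.6 among the rows above 1 CPM. H2afx and Mdc1 together held 67.9% of the members' 162909 reads. At the other end, Brca2, Fance, Rad51c, Usp1 and Atm each had fewer than 30 reads over all 12 livers. Of the 14 members below 1 CPM, only Xrcc3, Palb2 and Fancg had counting intervals that reached the 134 reads of 1 CPM.

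**Figure D1:**
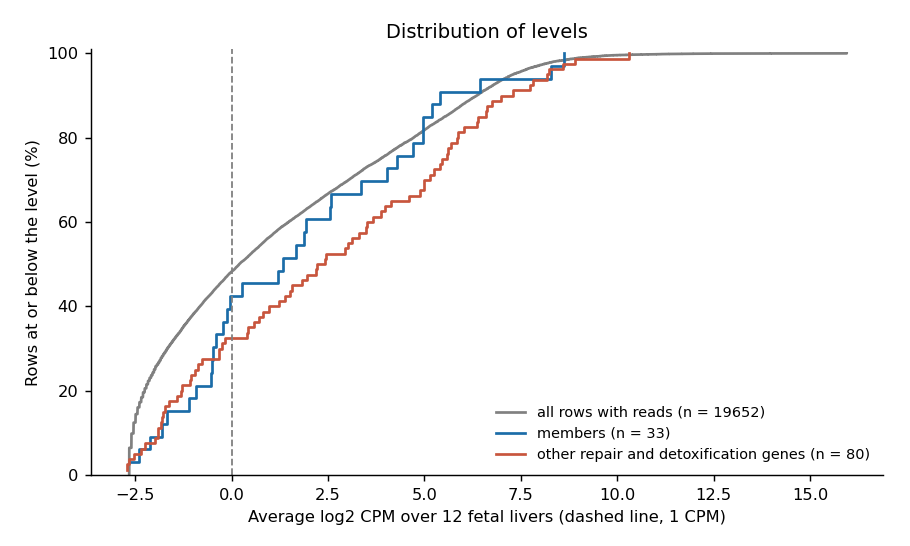
Cumulative share of rows (%) against the average log2 CPM over 12 fetal livers, for the 33 members, for 80 other repair and detoxification genes and for the 19652 rows with reads. The members' curve lies below that of all rows at 1 CPM (dashed line) and joins it at higher levels, and the other genes lie further to the right of it over most of that range.

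These levels are counts assigned to genes by the authors' counting, and in this table such counts did not follow the known abundance of an mRNA gene by gene. Several genes that most cells use heavily, picked here after their values were seen, were nearly empty. Ppia, a cyclophilin often used as a reference gene, had 2 reads, and Gapdh, a glycolytic enzyme, lay at 5.20 CPM beside 2581 CPM for Actb. Of 77 cytosolic ribosomal protein genes, 4 had no reads (Rps21, Rps25, Rps27a and Rps28), and the highest, Rpl4, lay at 2441 CPM. A low level of a member in this table is therefore a low count and is not evidence that the gene was silent in fetal liver.

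Low counts tended to go together with a larger number of transcripts annotated for a gene, with exceptions. Rps21 has 1 transcript in the GENCODE basic set and no reads, whereas Actb has 2 and lay at 2581 CPM. The 14 members with 1 transcript in the GENCODE basic set had a median of 8.03 CPM, and 11 of them (78.6%) lay above 1 CPM. The 19 members with 2 or more transcripts had a median of 0.758 CPM, and 8 of them (42.1%) lay above 1 CPM. Ribosomal protein genes had a median of 29.5 CPM with 1 transcript (n = 33) and of 7.85 CPM with more (n = 44). Among protein-coding genes in general, 53.0% of 8749 with 1 transcript and 38.9% of 11503 with more lay above 1 CPM. Across the 33 members, Spearman's rho between level and number of basic transcripts was -0.35, and with the number of RefSeq mRNAs it was -0.30. Over 20252 protein-coding genes it was -0.17 with basic transcripts, and over 20103 with RefSeq mRNAs it was -0.075. All of these genes share the same 12 libraries. The part of transcript number in the members' levels was not tested.

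**Figure D2:**
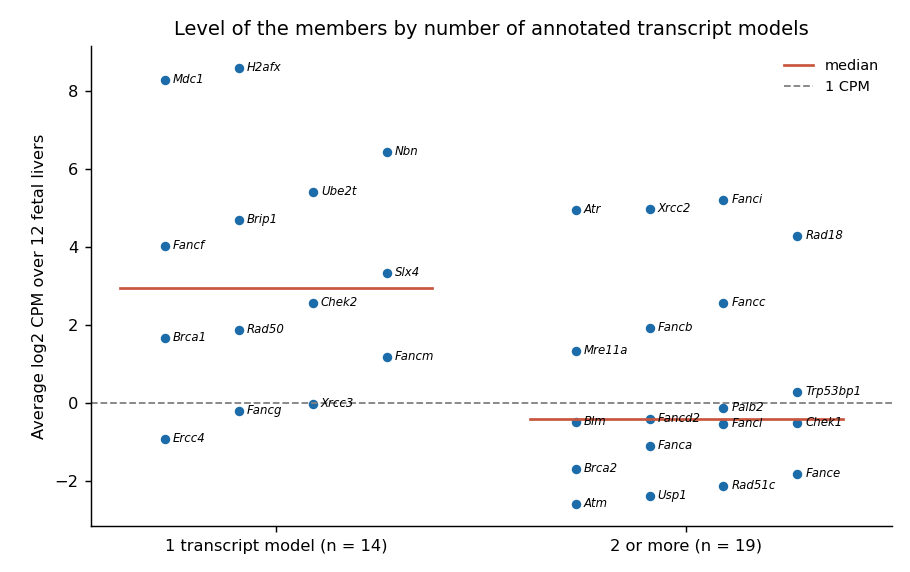
Average log2 CPM of each of the 33 members over 12 fetal livers, split by the number of transcript models in the GENCODE basic set, with the median of each class (red line) and 1 CPM (dashed line). The medians were 8.03 CPM for 14 genes with 1 model and 0.758 CPM for 19 genes with more, and the classes overlap from the level of Ercc4 up to that of Fanci.

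Some members also share transcribed sequence with a neighbour. Exons of 13 of the 33 members (39.4%) overlapped an exon of another gene, against 24.7% of 20252 protein-coding genes. The overlap passed 10% of the exonic length for Trp53bp1 with Tubgcp4 (22.1%), Fancl with Vrk2 (17.0%), Fanci with Polg (16.4%), Fancf with Gas2 (15.0%), Fanca with Zfp276 (12.3%) and H2afx with Gm44335 (10.2%). The library kit did not mark strand, so reads in these stretches cannot be assigned to 1 gene, and the levels of these 6 genes are uncertain to that extent.

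The promoters of the members were described by sequence, with a set of motifs common in mammalian promoters. RefSeq gave a promoter for 27 of the 33 members on GRCm38.p6, the build of mm10, and the 250 bases before the start were searched on both strands. These windows are not all upstream of the gene as GENCODE annotates it. Part or all of 20 of the 27 was exon of the gene itself or of a neighbour. Among them were the whole of the Chek1 and Fancl windows and 208 bases of the Fanci window, which were exon of the gene itself. The Fancc and Slx4 windows lay inside the annotated genes, wholly or mostly outside their exons. E2F factors switch on genes of DNA replication and repair as cells enter S phase. An E2F motif, TTTCCCGC or TTTGGCGC, was present in 4 of the 27 windows (14.8%) and in 1.35% of 27025 promoters. The CCAAT box, the letters CCAAT, was in 17 windows (63.0%) against 34.5% of all promoters, and the GC box, GGGCGG, was in 14 (51.9%) against 8907 of the 27025 promoters. The ETS motif CCGGAAG was in 5 (18.5%) against 7.07%, and TATAAA was in 2 (7.41%) against 13.0%. The members' windows were also richer in G and C, at a median of 56% against 52%. The 27025 promoters were not filtered by gene type, whereas all 27 members are protein-coding, so the 2 sets may differ in that respect too. No promoter entry was used for Fancd2, H2afx, Nbn, Rad50, Usp1 and Xrcc2.

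The 4 matches to the E2F motif belong to a recombination mediator, a checkpoint kinase, a core complex subunit and a chromatin adaptor, and are shown to let the matches be compared. Each line gives 30 bases 5′ to 3′ on the strand of the gene, with the motif or its reverse complement in capitals.
Brca2, chr5:150522442-150522471, plus strand: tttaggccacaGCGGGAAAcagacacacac
Chek2, chr5:110839820-110839849, plus strand: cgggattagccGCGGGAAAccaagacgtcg
Fancg, chr4:43010335-43010364, minus strand: tttcttttcagTTTCCCGCggaaccgtctc
Mdc1, chr17:35841468-35841497, plus strand: ttttcttcagcctgTTTCCCGCcggtagcc
All 4 matches were to TTTCCCGC, which Fancg and Mdc1 hold as written and Brca2 and Chek2 as its reverse complement. The first base of the motif lay 168 bases before the RefSeq start in Brca2, 152 in Chek2, 52 in Fancg and 16 in Mdc1. The 30 bases shown for Fancg lie within an exon of Fancg in GENCODE, whose annotated start is further upstream, and the 30 bases shown for the other 3 genes hold no annotated exon. Their genes ranged from 25 reads for Brca2 to 48973 reads for Mdc1, so genes with the motif lay at both low and high levels.

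In the FA core complex, 4 of 8 genes lay above 1 CPM and the median was 1.58 CPM. Fancf, an adaptor that joins subcomplexes and a gene with a single exon (chr7:51860577-51862267), was the highest with 2557 reads (95% interval 2459 to 2658). Fancc had 910 reads (852 to 971), and Fancb, the X-linked partner of the ligase subunit, had 580 (534 to 629). Fancm, the DNA translocase that anchors the complex on chromatin, had 337 reads (302 to 375). Below 1 CPM lay Fancg with 112 reads, Fancl, the ligase itself, with 84 (67.0 to 104), Fanca, the gene most often mutated in patients, with 49 (36.3 to 64.8), and Fance, which contacts FANCD2, with 21 (13.0 to 32.1). Of these 8 genes, Fancf, Fancg and Fancm have a single transcript in the GENCODE basic set.

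The subunits of 1 core subcomplex were thus counted at very different levels. FANCC, FANCE and FANCF bind each other, yet per kb Fancf had 5.26 times the reads of Fancc (4.87 to 5.68) and 146 times those of Fance (95.2 to 236). In the FANCA and FANCG subcomplex, Fancg exceeded Fanca 3.70 times (2.62 to 5.29). In the catalytic subcomplex, Fancb exceeded Fancl 6.37 times (5.06 to 8.11), though by coding length they had 226.5 and 74.9 reads per kb. All of these intervals exclude equal levels as far as counting error goes.

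Among the genes of the FANCD2 and FANCI step, 2 of 4 lay above 1 CPM and the median was 18.8 CPM. Ube2t, the conjugating enzyme that hands ubiquitin to FANCL, was counted at 42.6 CPM with 6695 reads, and Fanci at 36.8 CPM with 5778. Fancd2 (chr6:113531682-113597017) had 95 reads (76.9 to 116), at 0.758 CPM. Usp1, the protease that removes the ubiquitin again, had 6 reads (2.20 to 13.1). Fanci (chr7:79391929-79450264) exceeded its obligate partner Fancd2 72.2 times per kb (58.9 to 89.4). Both genes have 2 basic transcripts, but RefSeq lists 1 mRNA for Fanci and 2 for Fancd2. Ube2t exceeded Fancl 195 times per kb of the representative transcript (157 to 244). By coding length Ube2t and Fancl had 10939 and 74.9 reads per kb, and by the longest transcript 2064 and 30.9. Wdr48, the cofactor of USP1 outside the 33 genes, had 110 reads and exceeded Usp1 17.1 times per kb (7.59 to 47.5).

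Of the nucleases and recombination genes, 5 of 11 lay above 1 CPM, with medians of 0.977 CPM and 53.7 reads per kb, beside 41.9 reads per kb for the core complex. Per kb, Xrcc2, a homologous recombination gene with 4917 reads (31.4 CPM), was the highest at 1514. Rad18, a ligase for stalled replication forks with 3061 reads (19.6 CPM), followed at 1188 per kb, and Brip1, a helicase that binds BRCA1 with 4065 reads (26.0 CPM), at 586. Slx4, the scaffold for the unhooking nucleases, had 1576 reads and Brca1 476 (434 to 521). The genes of this group below 1 CPM were Xrcc3 with 130 reads, Palb2 with 122, the helicase gene Blm with 89, Ercc4, which encodes the XPF nuclease, with 59, Brca2 with 25 (16.2 to 36.9) and Rad51c with 12 (6.20 to 21.0).

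Partners within this group also lay apart. Slx4 exceeded Ercc4 16.3 times per kb (12.6 to 21.5), and each has 1 transcript in the basic set. Ercc1, the other subunit of the XPF nuclease, exceeded Ercc4 16.5 times (12.5 to 22.1). RAD51C pairs with XRCC3 in one complex and meets XRCC2 in another, and Rad51c lay below Xrcc3 by 17.6 times (9.76 to 35.0) and below Xrcc2 by 498 times (285 to 964). Palb2, the bridge between BRCA1 and BRCA2, exceeded Brca2 14.0 times (9.02 to 22.4). Bard1, the partner that stabilises BRCA1, exceeded Brca1 38.1 times (34.8 to 41.9).

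Among damage signalling genes, 8 of 10 lay above 1 CPM, with medians of 4.77 CPM and 255 reads per kb, beside 631 reads per kb for the FANCD2 and FANCI step. H2afx (chr9:44334694-44336077), the histone variant phosphorylated around breaks, had 391 CPM and 61609 reads, which per kb was the highest level of the 33 genes. Mdc1 (chr17:35841515-35859670), the adaptor that reads phosphorylated H2AX, had 311 CPM and 48973 reads. Trp53bp1, which is recruited downstream of MDC1 and favours end joining, had 167 reads (143 to 194), so that Mdc1 exceeded it 385 times per kb (330 to 450).

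The MRN complex senses broken ends. Nbn, its signalling subunit, had 86.5 CPM and 13608 reads, the third highest count. Rad50, the ATPase that tethers ends, had 550 reads (505 to 598), and the nuclease gene Mre11a had 371 (334 to 411). Per kb of the representative transcript, Mre11a and Rad50 were not separated by counting error, with a ratio of 1.06 (0.925 to 1.21). That near equality depends on the length used. By coding length Mre11a and Rad50 had 175 and 140 reads per kb, and by the longest transcript 65.6 and 107. Nbn exceeded Rad50 50.3 times (46.2 to 54.9). Of 20 pairs of partners compared per kb of the representative transcript, 16 lay more than 10 times apart. The interval held 1 for the Mre11a and Rad50 pair alone. Some genes occur in several pairs, and the share among other pairs of genes was not computed. The members alone ran from 0.205 to 44515 reads per kb, so the count is not shown to be particular to partners.

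Of the apical kinases, Atr, which answers stalled forks, had 31.1 CPM and 4881 reads. Atm (chr9:53439149-53536740), which answers double-strand breaks, had only 2 reads (0.242 to 7.22) and was the lowest of the 33 genes. Atm has 2 basic transcripts and 1 RefSeq mRNA. Their effector kinases ran the other way, with 905 reads (847 to 966) for Chek2, the target of ATM, and 86 (68.8 to 106) for Chek1, the target of ATR. Per kb, Atr exceeded Chek1 26.6 times (21.5 to 33.3), and Chek2 exceeded Atm 1946 times (537 to 16092). Atr and Chek1 lay closer together by coding length, at 616 and 60.4 reads per kb. Atrip, the obligate partner of ATR, had 3 reads, and Atr exceeded it 516 times (177 to 2505).

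**Figure D3:**
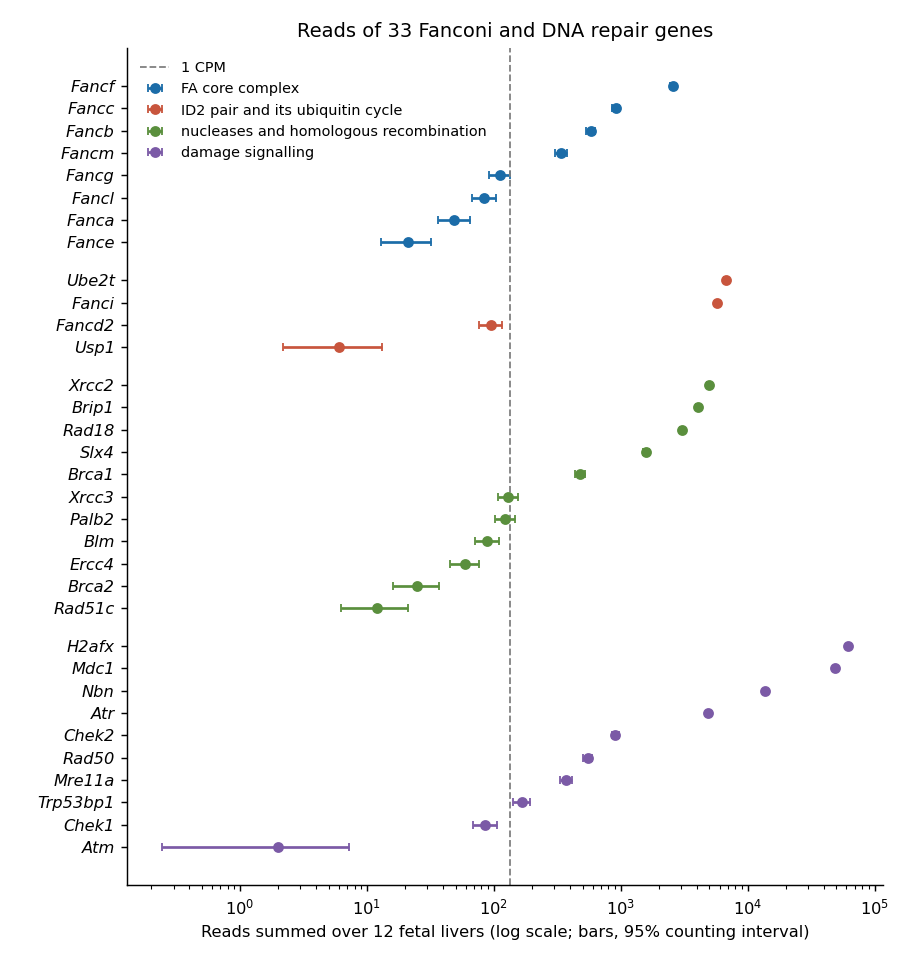
Reads summed over 12 fetal livers for each of the 33 members (log axis), grouped by role, with exact 95% Poisson intervals for counting error as bars and 1 CPM (134 reads) as a dashed line. Levels run from 2 reads for Atm to 61609 for H2afx, and every group holds genes on both sides of the line.

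**Figure D4:**
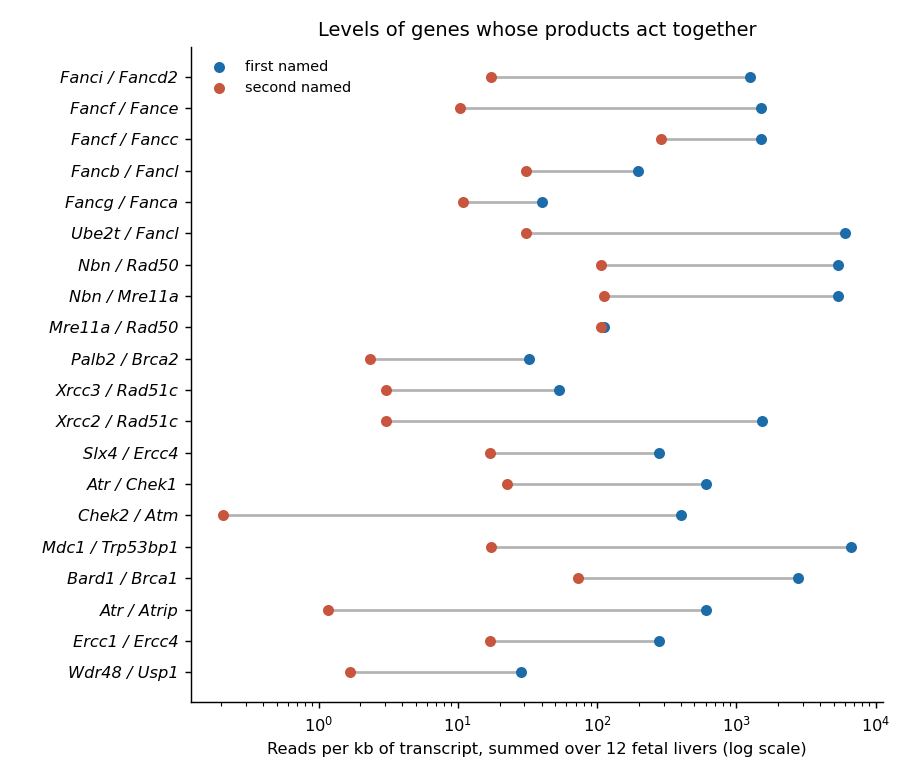
Reads per kb of transcript over 12 fetal livers (log axis) for 20 pairs of genes whose products act together, with the first-named gene in blue and the second in red. Mre11a and Rad50 nearly coincide at 113 and 107 reads per kb of the representative transcript, though not with other transcript lengths, whereas Chek2 and Atm lie 1946 times apart.

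A further 80 genes were taken from 7 lists of repair genes and 1 of aldehyde detoxification. Of these, 54 (67.5%) lay above 1 CPM, with a median of 5.02 CPM beside 2.51 CPM for the 33 members. The medians of 5 lists lay above that of the members and those of the ATR pathway, nucleotide excision repair and base excision repair lay below it. The FA accessory proteins, a list that includes the USP1 cofactor gene Wdr48, had 5 of 6 genes above 1 CPM and a median of 11.9 CPM. Faap24 was highest per kb with 8164 reads, and Wdr48 was lowest and the only gene of the list below 1 CPM. Stra13 had no matched transcript length and was not ranked per kb. End joining had 6 of 7 above 1 CPM (median 12.6 CPM), from Xrcc5 at 83.7 CPM to its partner Xrcc6 at 0.477 CPM. Mismatch repair had 5 of 7 (5.39 CPM), led by Msh6 at 212 CPM, with Mlh3 lowest at 27 reads. Further recombination genes had 14 of 19 (4.53 CPM), from the RPA subunit gene Rpa2 at 158 CPM to Rad51d, listed in the table as Rad51l3, without a read.

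The ATR pathway with the 9-1-1 clamp had 5 of 9 genes above 1 CPM and a median of 1.33 CPM. Its extremes were Topbp1, the activator of ATR, at 386 CPM and the fork protector gene Tipin without a read. A count of 0 allows up to 3 reads as a one-sided limit, and the interval used for the other counts then reaches 3.69 reads. Nucleotide excision repair had 6 of 11 (1.34 CPM), from the damage sensor gene Ddb1 at 1270 CPM to Ercc3, a helicase, with 1 read. Base excision repair had 8 of 16 (1.21 CPM), from Parp1 at 479 CPM to the glycosylase gene Mutyh with 7 reads. All 5 aldehyde detoxification genes, whose substrates include sources of DNA crosslinks, lay above 1 CPM (median 82.7 CPM), with Adh5 highest per kb at 224 CPM and Aldh1a1 lowest at 4.64 CPM. On the log2 CPM scale the median of rows with reads was 0.20. The medians of 7 of the 8 lists lay above it and that of base excision repair, at 0.19, lay just under it, and no test was made between lists.

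Markers of hepatocytes, erythroid cells and dividing cells were mostly high, with low counts for Serpina1a and Alas2. The hepatocyte genes Alb and Afp lay at 63314 and 54525 CPM, Apoa1 at 5096, Ttr at 2590 and Trf at 287, whereas Serpina1a had 5 reads. Of the erythroid genes, Slc4a1 lay at 12037 CPM, Klf1 at 692 and Epor at 224, whereas Alas2 lay at 0.704. No row was used for Hba-a1. Proliferation genes ran from 32.6 CPM for Ccnb1 through Top2a (483), Pcna (524) and Mcm2 (859) to 5568 for Mki67. Stem and progenitor genes had low counts, with Cd48 at 5.21 CPM, Myb at 2.84, Cd34 at 1.14, Gata2 at 0.803 and Kit at 1 read. All of these stem and progenitor genes have 2 basic transcripts, as do Serpina1a, Alas2 and the higher Trf. The part of transcript number in the marker levels was not tested. Myh6, Sftpc and Umod, markers of heart, lung and kidney, had no reads and Neurod6, of brain, had 3. In RNA from a whole organ, fewer cells of a type, less RNA per cell and reads missed by the counting cannot be told apart. The cell type that supplied the members' reads was therefore not determined.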

How the data were processed

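PolyA-selected RNA of 12 whole fetal livers, 6 per diet, was sequenced on an Illumina HiSeq instrument after TruSeq v2 preparation, which does not keep strand. The authors used Subread (1.3.6-p1) for alignment to the mm10 genome, biomaRt for gene annotation and edgeR for the diet comparison, and cutadapt 1.2.1 is named in the submitters' processing notes. How reads were counted per gene and normalized is not given in the sources used here. The deposited table gives, for each of 30743 rows, the average log2 CPM over all livers. Its other columns hold the authors' own comparison (fold changes, p-values and adjusted p-values with 2 dispersions, and a signed fold change) and were not used.

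Reads were recovered from the average log2 CPM, assuming a prior count of 2 and taking the lowest value (-2.71, shared by 11091 rows) as 0 reads. Of 4524 rows with 1 to 12 reads, 4498 (99.4%) came within 0.1 of a whole number. For higher genes the total rests on the average and is approximate. Transcript lengths, positions and transcript numbers came from GENCODE M21 on GRCm38, matched by symbol for 22838 rows and all 33 members, with 1 representative transcript per gene. Promoters were RefSeq windows on GRCm38.p6, of which the 250 bases before the start were kept, 1 per gene. Ratios of partners carry exact conditional 95% intervals.

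The members, the lists, the pairs and the motifs were chosen with earlier results of these data known. All members and the markers are named, except 1 marker that is not reported here, with the highest and lowest gene of each list per kb of transcript. Other genes were named after their values were seen. Scripts ran under Python 3.11.15, with pandas 2.3.3, numpy 2.4.6 and scipy 1.17.1 for the values and matplotlib 3.10.9 for the plots.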

Additional observations from a re-analysis of the deposited data

How the results depend on the processing

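The planned test of HFD against control livers and its alternatives were not run, because no values of individual livers entered this work. No paired analysis was possible because no result comes from a test and the value used carries no replicate number. The members' median level of 72.5 reads per kb was 124 with coding length, 65.6 with the longest transcript and, with no length correction, 371 reads. The same 10 genes were the highest per kb under each of these. The members' median stood at percentile 20.9 of rows above 1 CPM, 33.9 of rows above 0.5 CPM, 59.0 of rows with reads and 73.8 of all rows. The references cut at 1 and 0.5 CPM leave out low rows, while every member was kept. The 57.6% of members above 1 CPM became 81.8% at a threshold of 0.5 CPM, 78.6% among the 14 members with 1 basic transcript and 55.6% among the 27 with at most 10% overlap, and these 3 alternatives were chosen after seeing the data. Of the 8 comparison lists, 7 had a median above that of rows with reads, and 8 had a mean log2 CPM above the mean of those rows. With only genes above 1 CPM kept, 7 had a median above that of all rows above 1 CPM. The list below that reference was mismatch repair, at a median log2 CPM of 2.44, and no longer base excision repair. With no value for single livers, the spread between livers and between diets limits every level here. The prior count is assumed, and genes under 30 reads carry wide counting intervals.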
